A study of Rattus norvegicus with 8 samples.

Results

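The genes described here are 10 genes through which arterial smooth muscle handles calcium and sets its membrane potential, namely Cacna1c, Kcnma1, Kcnmb1, Kcnn4, Itpr1, Ryr2, Atp2a2, Pln, Stim1 and Orai1. They were taken from the deposited count table by gene symbol, and all 10 were among its 37209 genes. RNA was sequenced from carotid arteries of male Sprague-Dawley rats. In the injured group (4 arteries), the left carotid artery had been injured with an angioplasty balloon catheter and was harvested after 2 wks. In the control group (4 arteries), the vessel was the opposite, right carotid artery, left undamaged, so both groups come from operated animals, and the labels name no transgene or drug for either. The study describes the right artery as a self-control, so the groups share rats. The labels number the arteries of each group from 1 to 4 but do not say which rat each came from, and the p-values measure the spread between these arteries.

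Arterial smooth muscle contracts when calcium rises in the cytosol. Calcium enters through voltage-gated L-type channels, is released from the sarcoplasmic reticulum through inositol trisphosphate and ryanodine receptors, and is pumped back by the SERCA pump. Emptying of the store opens a separate entry path formed by STIM and ORAI proteins. Calcium-activated potassium channels hyperpolarize the membrane and thereby limit voltage-gated entry. Smooth muscle cells that leave the contractile state after injury are known to change this set of channels.

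The libraries held between 11459632 and 16658089 counts, and all 10 genes passed the filter on low counts. Levels are given as CPM, counts relative to the library total after scaling with TMM factors, and they are compared between arteries for one gene, not between genes, since transcript lengths were not used. The tissue labels name the carotid artery, whereas the extraction text names brain cortex. Smooth muscle actin (Acta2) had at least 59720 counts in every artery and smooth muscle myosin (Myh11) at least 43413, while the cortex neuron markers Neurod6 and Gad2 had at most 2. Other neuron markers of that list were higher. Camk2a had a log2 CPM of 1.20 to 1.67 in controls 1 to 3, 4.31 in control artery 4 and -0.64 to 2.37 after injury. Gad1 reached 1.23 in control artery 2, and Rbfox3 reached 1.32 in control artery 4. The whole list of 9 cortex markers summed to 5.06 to 6.16 CPM of the library total in controls 1 to 3 and 49.3 CPM in control artery 4. It summed to 218.9 CPM in injured artery 3 and 12.7 to 57.8 CPM in the other injured arteries. Most of the sum in injured artery 3 came from Gfap, a marker of astrocytes and other glia. Gfap was at 195.6 CPM there after TMM scaling, with a log2 CPM of 7.61, or 7.71 on library totals. Control artery 4 stood apart, with log2 CPM that correlated with the other controls at 0.830 to 0.852 across 14359 genes, against 0.976 to 0.978 among those 3. The 13 sympathetic neuron markers summed to 13830 CPM of the library total there and to 3956 CPM in injured artery 3, against 6.53 to 11.8 CPM in the other controls and 16.5 to 270.5 CPM in the other injured arteries. The 10 contractile smooth muscle markers summed to 18773 CPM in control artery 4, below the 38857 to 50171 CPM of the other controls and within the 12337 to 19505 CPM of the injured arteries. The CPM of the 10 genes, their ratios and their levels relative to contractile genes are therefore also given without control artery 4.

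The groups were tested with edgeR (quasi-likelihood) over all genes. A gene was called at a false discovery rate under 0.05 together with a fold change above 2. Of the 10 genes, 4 were called. Kcnma1, Kcnmb1 and Itpr1 fell and Kcnn4 rose. Across all genes tested, 10.9% were called, 2.57% lower and 8.31% higher. The median log2 change (injured against control, SE for its standard error) of the 10 genes was -0.66, against -0.06 over all genes tested. In CPM, 2 of the 10 were lower and 1 was higher without overlap between the groups, where 9.51% and 14.2% of all genes were so. Without control artery 4, the same 4 genes were called and their list's median was -0.88. In that fit 16.2% of all genes were called, and the median over all genes was 0.03. In a whole artery, fewer smooth muscle cells and less RNA per cell cannot be told apart.

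**Figure D1:**
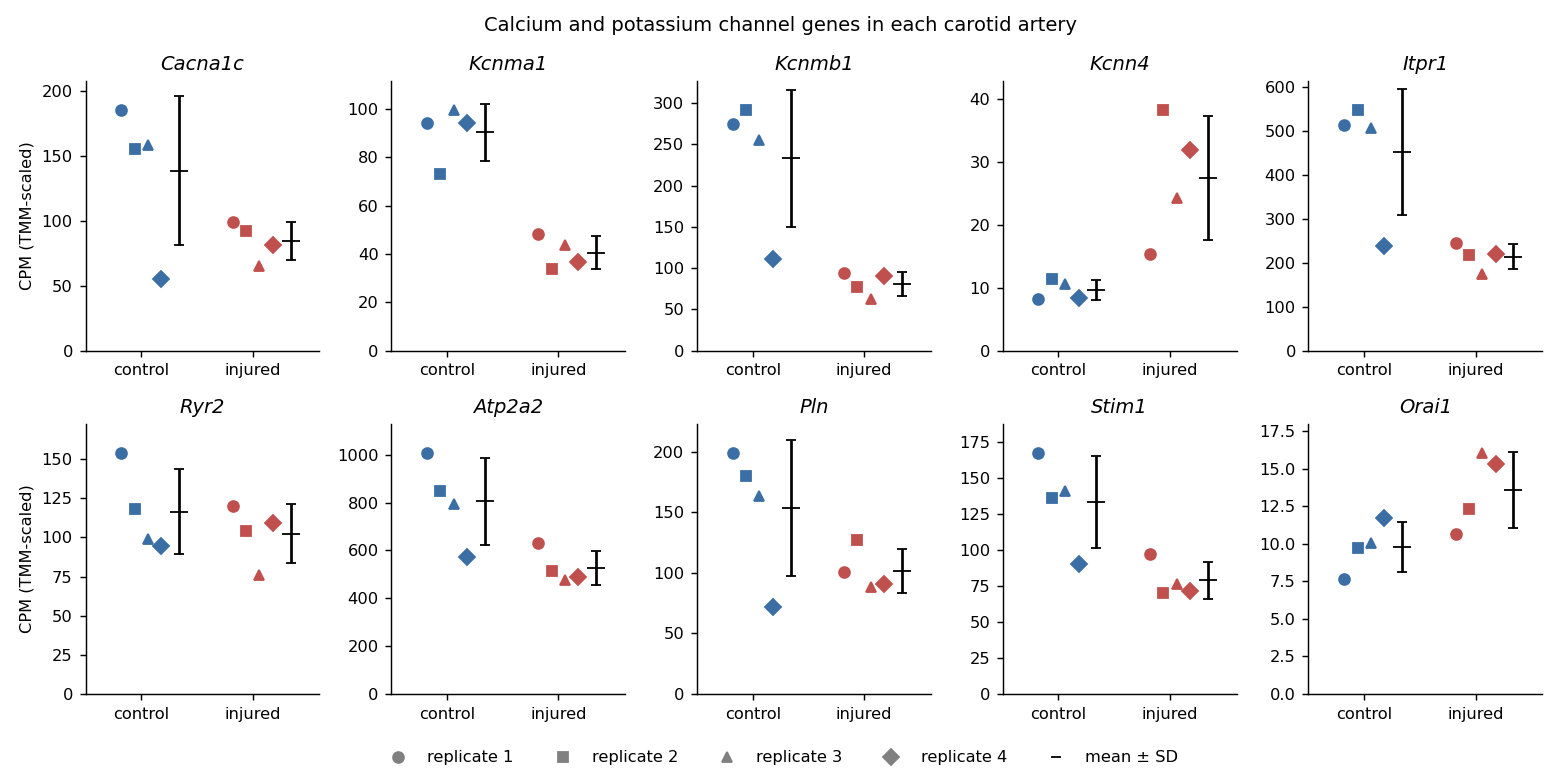
TMM-scaled CPM (linear axes from 0) of each gene in the 4 control and 4 injured arteries, 1 symbol per replicate number, with the mean and SD beside the points. Kcnma1 and Kcnmb1 are lower in every injured artery than in any control, Kcnn4 is higher in every injured artery, and control artery 4 is the lowest control for Cacna1c, Kcnmb1, Itpr1, Ryr2, Atp2a2, Pln and Stim1.

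The large-conductance calcium-activated potassium (BK) channel opens with depolarization and calcium, and its current relaxes the artery. Its pore-forming subunit, Kcnma1, was measured at 94.3, 73.2, 99.6 and 94.1 CPM in control arteries 1 to 4 and at 48.4, 33.6, 43.6 and 36.8 CPM in injured arteries 1 to 4. Every injured artery lay below every control, and control artery 4 sat among the other controls. The level fell from 90.3 ± 11.7 to 40.6 ± 6.68 CPM (SD, n = 4), with a log2 change of -1.15 (SE 0.15, edgeR adjusted p = 0.00214). This was the smallest p of the 10 genes. With library totals as the only scaling it was -0.97, just short of the 2-fold criterion, and without control artery 4 it was -1.14.

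Kcnmb1 encodes the beta1 subunit, which raises the calcium sensitivity of the BK channel in smooth muscle. Its CPM was 275.0, 291.8, 255.4 and 110.8 in control arteries 1 to 4 and 93.8, 77.7, 62.3 and 90.1 in injured arteries 1 to 4. Again no artery of one group reached the other, although control artery 4 lay closer to the injured arteries than to the other controls. From 233 ± 83.0 to 80.9 ± 14.2 CPM (SD, n = 4), the log2 change was -1.53 (SE 0.30, edgeR adjusted p = 0.0115), the largest fall of the 10. Leaving out control artery 4 gave -1.76 (SE 0.15, edgeR adjusted p = 0.000281), and over the settings tried the adjusted p ran from 1.53e-05 to 0.0564, so that the call was not made in every setting. Kcnmb1 overlaps another gene, Kcnip1, in the rat annotation, and Kcnip1 had at most 14 counts in any artery.

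Kcnn4, the intermediate-conductance calcium-activated potassium channel, needs no depolarization to open and is known from leukocytes, endothelium and dividing smooth muscle cells. Controls 1 to 4 had 8.18, 11.4, 10.6 and 8.38 CPM of it and injured arteries 1 to 4 had 15.4, 38.3, 24.3 and 31.9 CPM. All injured arteries were above all controls, and injured artery 1 was the lowest of them. Kcnn4 rose from 9.64 ± 1.61 to 27.5 ± 9.86 CPM (SD, n = 4), with a log2 change of 1.51 (SE 0.28, edgeR adjusted p = 0.00942), which is 2.85-fold. It was called in each of the 8 fits that left out 1 artery, with log2 changes of 1.31 to 1.71, and 1.44 without control artery 4. Macrophage and T cell markers were also higher after injury. Of 11 macrophage markers, 10 were called higher, and their summed level was 204 to 316 CPM of the library total in the controls and 2017 to 2877 CPM after injury. Of 9 T cell markers, 8 were tested and 2 were called, both higher, and the list summed to 2.23 to 11.8 CPM in the controls and to 15.8 to 38.1 CPM after injury. In injured arteries 1 to 4 the macrophage sums were 2062, 2877, 2017 and 2440 CPM and the T cell sums 38.1, 26.4, 15.8 and 25.4 CPM. Injured artery 1, the lowest for Kcnn4, thus had the highest T cell sum. The 10 endothelial markers summed to 933 to 2225 CPM of the library total in the controls and 948 to 1332 CPM after injury. The part of these cells in the Kcnn4 result was not tested.

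Voltage-gated calcium entry was represented by Cacna1c, the pore of the L-type channel and the target of dihydropyridine calcium antagonists. It was at 185.8, 155.3, 159.0 and 55.3 CPM in control arteries 1 to 4 and at 99.3, 92.2, 65.4 and 81.8 CPM in injured arteries 1 to 4. The first 3 controls were above every injured artery, but control artery 4 was below all of them. The log2 change was -0.71 (SE 0.34, edgeR adjusted p = 0.2), which was not called. Leaving out control artery 4 gave -0.98 (SE 0.15, edgeR adjusted p = 0.00256), still under the 2-fold criterion. Over the settings tried the adjusted p ran from 0.00104 (log2 change -0.87, without control artery 4 and injured artery 3) to 0.37. Cacna1c overlaps Dcp1b, which had 140 to 412 counts, and without the strand their shared reads cannot be told apart.

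Release from the sarcoplasmic reticulum was represented by Itpr1 and Ryr2. Itpr1, the inositol trisphosphate receptor through which vasoconstrictors release calcium, had 514.8, 548.5, 507.7 and 239.3 CPM in control arteries 1 to 4 and 244.8, 217.1, 174.4 and 220.8 CPM in injured arteries 1 to 4. Control artery 4 overlapped the injured arteries, and the other controls were far above them. Itpr1 fell from 453 ± 143 to 214 ± 29.3 CPM (SD, n = 4), with a log2 change of -1.08 (SE 0.26, edgeR adjusted p = 0.0265). Of the 8 fits that left out 1 artery, only the one without control artery 4 called it, at -1.29 (SE 0.12, edgeR adjusted p = 0.000399), and the other 7 gave -0.98 to -1.15 with an adjusted p of 0.0546 to 0.0802. Among the settings that also lost the call were upper-quartile factors (-1.02) and library totals only (-0.89).

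Ryr2, the ryanodine receptor whose local release, the calcium spark, activates BK channels, was at 153.9, 118.5, 98.9 and 94.8 CPM in control arteries 1 to 4 and at 120.1, 104.1, 76.0 and 109.4 CPM in injured arteries 1 to 4. The groups overlapped over most of their range. Its log2 change was -0.19 (SE 0.20, edgeR adjusted p = 0.569) and turned to 0.000513 with library totals only, so Ryr2 has no direction here. With control artery 4 left out it was -0.28.

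Calcium is returned to the store by Atp2a2 (SERCA2), which Pln (phospholamban) inhibits when unphosphorylated. Atp2a2 had 1006, 849, 792 and 570.5 CPM in control arteries 1 to 4 and 630.8, 512.8, 474.1 and 490.6 CPM in injured arteries 1 to 4. Only control artery 4 and injured artery 1 crossed between the groups. The log2 change was -0.61 (SE 0.20, edgeR adjusted p = 0.0687), and it was -0.75 (edgeR adjusted p = 0.00544) without control artery 4. Pln was at 198.9, 180.2, 163.5 and 72.0 CPM in control arteries 1 to 4 and at 100.8, 127.4, 87.9 and 90.5 CPM in injured arteries 1 to 4. As for Cacna1c, control artery 4 was the lowest of all 8 arteries and the other controls were the highest. Its log2 change was -0.60 (SE 0.30, edgeR adjusted p = 0.218), and -0.84 (edgeR adjusted p = 0.00445) without control artery 4. Neither gene was called in any fit that left out an artery. Over the settings tried the edgeR and DESeq2 adjusted p ran from 0.00544 to 0.184 for Atp2a2 and from 0.00445 to 0.404 for Pln. Pln overlaps the protein-coding gene Cep85l in the rat annotation. The deposited counts hold no gene under that symbol, so reads shared with Pln could not be checked.

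Store-operated entry was represented by its sensor, Stim1, in the membrane of the store, and its pore, Orai1, in the plasma membrane. Stim1 had 167.3, 136.0, 140.9 and 90.3 CPM in control arteries 1 to 4 and 97.3, 69.8, 76.6 and 71.6 CPM in injured arteries 1 to 4. Only control artery 4 and injured artery 1 overlapped. With a log2 change of -0.76 (SE 0.20), Stim1 passed the false discovery rate (edgeR adjusted p = 0.0354) but not the 2-fold criterion, and the adjusted p ran from 0.00263 (log2 change -0.91, without control artery 4) to 0.111 over the settings tried. Orai1, by contrast, was at 7.68, 9.72, 10.1 and 11.7 CPM in control arteries 1 to 4 and at 10.7, 12.4, 16.1 and 15.3 CPM in injured arteries 1 to 4. Control artery 4 was the highest control, and injured artery 1 the only injured artery within the control range. The log2 change of 0.47 (SE 0.20) was not called (edgeR adjusted p = 0.147, 0.0672 to 0.322 over the settings tried), and without control artery 4 it was 0.57.

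**Figure D2:**
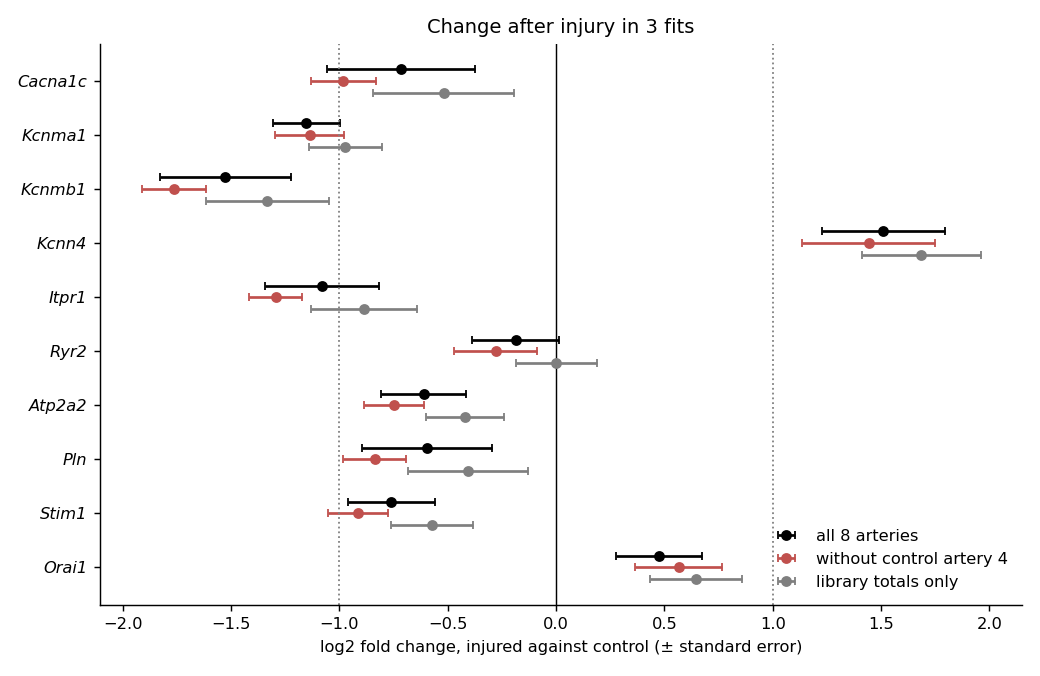
Log2 fold change of each gene (injured against control, horizontal axis) with its standard error, in the edgeR fit of all 8 arteries (black), without control artery 4 (red) and with library totals as the only scaling (grey). Dotted lines mark the 2-fold criterion. Leaving out control artery 4 moves Cacna1c from -0.71 to -0.98 and narrows the error of most genes, and Ryr2 lies at 0 with library totals only.

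For the exact permutation test of each gene's log2 CPM, over all 70 relabellings and two-sided, the smallest p that 4 arteries against 4 allow is 0.0286. Kcnma1, Kcnmb1 and Kcnn4 reached it, before any adjustment for the number of genes. Atp2a2, Itpr1, Stim1 and Orai1 had p = 0.0571 in this exact test.

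Ratios of 2 genes within an artery do not depend on the library's scaling factor, and 6 pairs were compared by the same exact permutation test. Kcnn4 over Kcnma1, the intermediate- over the large-conductance channel, showed the widest difference. Its log2 ratio was -3.50, -2.66, -3.22 and -3.47 in control arteries 1 to 4 and -1.64, 0.19, -0.84 and -0.21 in injured arteries 1 to 4, with no overlap. The difference of 2.59, which is 6.02-fold, had p = 0.0286 in the exact permutation test, the smallest possible, and 0.0857 adjusted over the 6 pairs. Kcnn4 alone was higher, and Kcnma1 alone lower, in every injured artery than in any control. Their ratio therefore had to separate, and its p adds no support to the single-gene results. These log2 values of reads compare arteries and are not the relative number of the transcripts.

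The release receptors were compared with each other in the same way. Ryr2 over Itpr1 had a log2 ratio of -1.74, -2.21, -2.36 and -1.33 in control arteries 1 to 4 and of -1.03, -1.06, -1.20 and -1.01 in injured arteries 1 to 4. The injured arteries lay close together and above every control. The difference of 0.84 (exact permutation p = 0.0286, adjusted 0.0857) grew to 1.03 without control artery 4. Stim1 over Orai1 differed by -1.20 (exact permutation p = 0.0571, adjusted 0.114) and Orai1 over Cacna1c by 1.06 (exact permutation p = 0.114, adjusted 0.171), and in both pairs it was control artery 4 that overlapped the injured arteries. Without it the differences were -1.47 and 1.54.

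The remaining pairs are a subunit or an inhibitor and its partner. Kcnmb1 over Kcnma1, the BK beta1 subunit over the pore, had a log2 ratio of 1.54, 1.99, 1.36 and 0.24 in control arteries 1 to 4 and of 0.95, 1.21, 0.51 and 1.29 in injured arteries 1 to 4. Control artery 4 was the lowest of all 8. The difference was -0.29 (exact permutation p = 0.486, adjusted 0.583), and -0.64 without that artery. Pln over Atp2a2, phospholamban over its pump, differed by 0.08 (exact permutation p = 0.771) and changed sign, to -0.10 without control artery 4 and to -0.05 without injured artery 2.

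**Figure D3:**
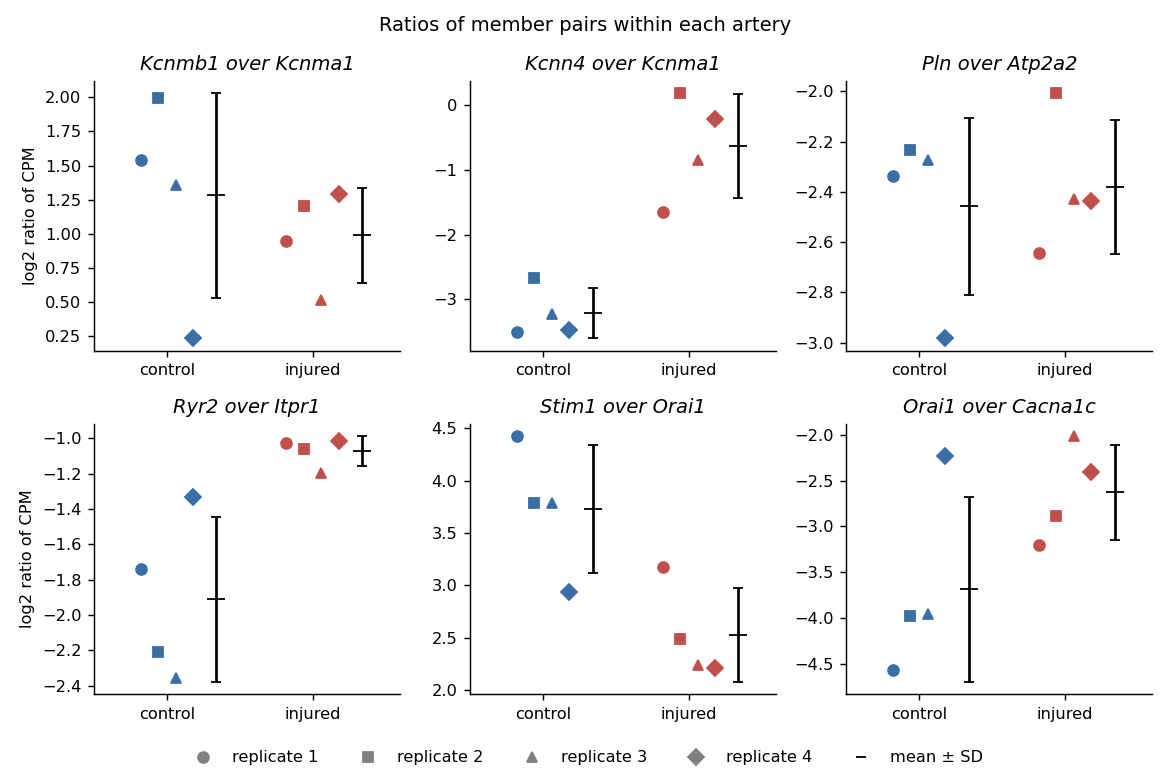
Log2 ratio of the CPM of 2 genes (vertical axis, not from 0) within each of the 4 control and 4 injured arteries, for the 6 pairs, with the mean and SD beside the points. Kcnn4 over Kcnma1 and Ryr2 over Itpr1 are higher in every injured artery than in any control, whereas Pln over Atp2a2 and Kcnmb1 over Kcnma1 overlap.

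The contractile genes of the same arteries give a scale for these changes. Of 10 contractile smooth muscle markers, 8 were called lower, with a median log2 change of -1.52, among them Acta2 at -1.34 and Myh11 at -1.72. For each artery, the mean log2 CPM of these 10 markers was subtracted from the log2 CPM of each channel gene. Kcnmb1 overlapped between the groups on this scale, with differences of -3.12, -2.94, -2.77 and -2.88 in control arteries 1 to 4 and -3.06, -3.15, -3.03 and -2.79 in injured arteries 1 to 4. Control artery 4 lay among the other controls on this scale. Relative to the contractile genes, Kcnmb1 differed by -0.08 (exact permutation p = 0.429) and Kcnma1 by 0.21 (exact permutation p = 0.657). The Kcnma1 value rested on single arteries. Control artery 4 was at -3.11 and the other controls at -4.13 to -4.93, and the difference was 0.58 without control artery 4 and -0.03 without control artery 2. Kcnmb1 was at -0.06 without control artery 4.

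Cacna1c, whose CPM overlapped between the groups, was separate on this scale. It was at -3.68, -3.84, -3.46 and -3.88 in control arteries 1 to 4 and at -2.97, -2.90, -2.96 and -2.93 in injured arteries 1 to 4, and the injured arteries lay close together (SD 0.03). The difference was 0.77 (exact permutation p = 0.0286, the smallest possible). Pln differed by 0.86, Atp2a2 by 0.78, Itpr1 by 0.35, Ryr2 by 1.19 and Kcnn4 by 2.80, each with no overlap and the same exact permutation p, unadjusted. The contractile markers themselves fell, with a median log2 change of -1.52, while the median over all genes tested was -0.06. A gene without change would therefore also be higher on this scale. The share of all genes that were separate on it was not computed. Stim1 (0.63) and Orai1 (1.83) had p = 0.0571 in the exact permutation test. Leaving out control artery 4 gave 0.72 for Cacna1c, 0.87 for Pln, 0.96 for Atp2a2, 0.41 for Itpr1, 1.44 for Ryr2, 3.08 for Kcnn4, 0.79 for Stim1 and 2.26 for Orai1. With the median of the markers in place of their mean, 4 of these 6 genes still had an exact permutation p of 0.0286, namely Cacna1c, Kcnn4, Pln and Ryr2, while Atp2a2 differed by 0.58 and Itpr1 by 0.15.

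**Figure D4:**
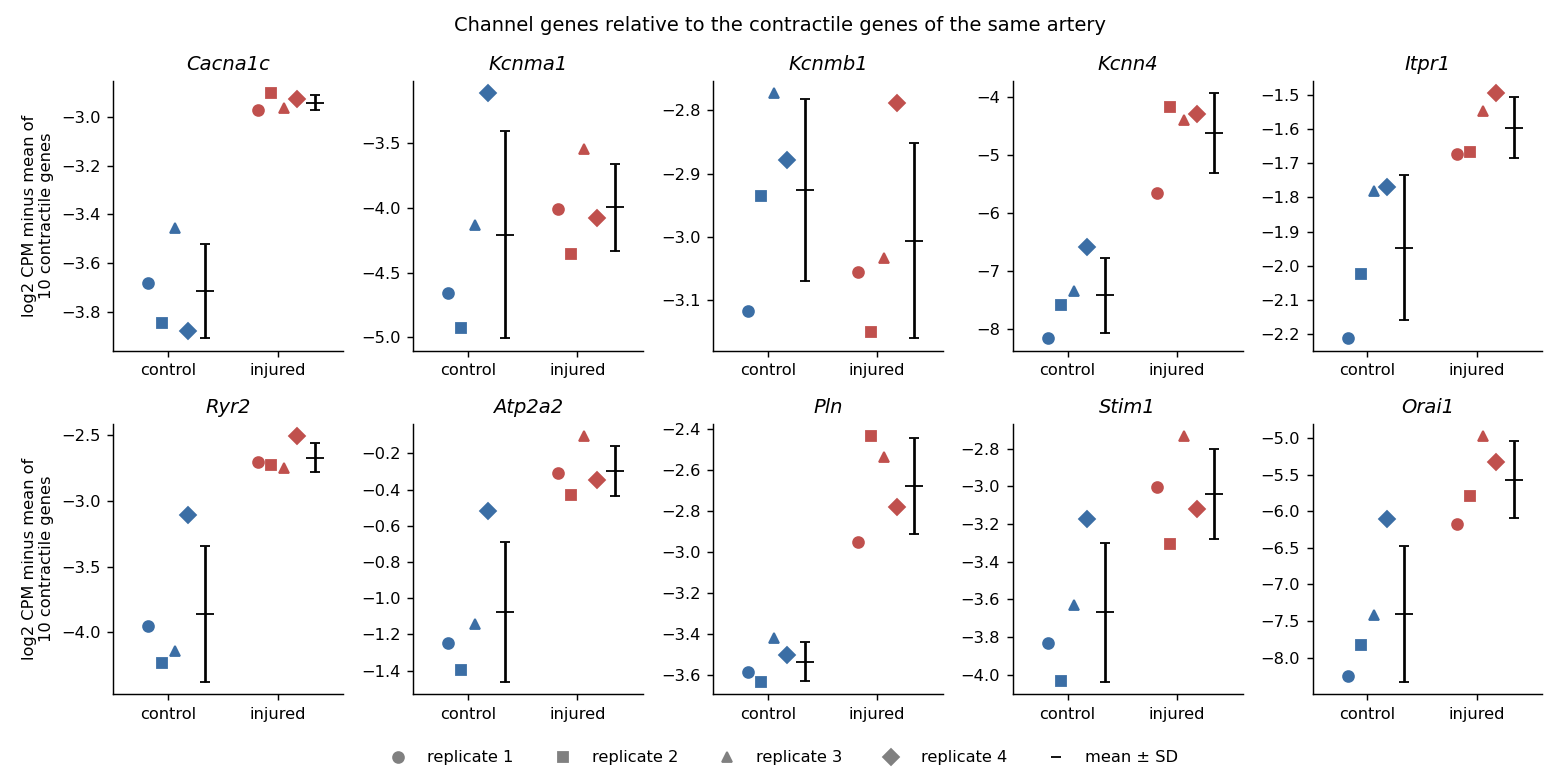
Log2 CPM of each gene minus the mean log2 CPM of 10 contractile smooth muscle genes (vertical axis, not from 0) in each artery, with the mean and SD beside the points. Kcnmb1 and Kcnma1 overlap between the groups, and Cacna1c, Kcnn4, Itpr1, Ryr2, Atp2a2 and Pln are higher in every injured artery. The contractile genes themselves fell after injury, so a gene without change would also be higher on this scale.

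Promoter windows from RefSeq (GRCr8, 250 bases before to 50 after the annotated start) were held for 9 of the 10 genes, all but Kcnn4. They were searched on both strands for the CArG box, the site of serum response factor, for the E box (CANNTG), and for the M-CAT element (CATTCC). For the CArG box only the exact pattern was counted, CC and GG around 6 bases of A or T. None of the 9 windows held this exact CArG pattern, as against 1.64% of 33469 windows, and none of 6 windows of contractile genes held it. Variants of the pattern and sites outside the windows were not searched, so these genes may still have a serum response factor site. An E box was in 7 of the 9 and in 72.1% of all windows, and an M-CAT element was in 1 of the 9 and in 14.2% of all. The 30-base stretches below are shown for Cacna1c, the one window with both elements, for Itpr1, the gene that fell with an E box before its start, and for Pln. Capitals mark the E box, and in Cacna1c the second run of capitals is the M-CAT element. Cacna1c (chr4:154051846-154051875, minus strand), Itpr1 (chr4:142743330-142743359, plus strand) and Pln (chr20:33172456-33172485, plus strand) read 5′ to 3′ as follows.
Cacna1c: cacaagcCATTTGcttcgCATTCCcatcca
Itpr1: aagtgcagtaacCATGTGgatgttctgctg
Pln: ctccacctactgCAACTGttcccataaacc
Kcnma1 held none of the 3 elements in its window, and the E box of Kcnmb1 spans the annotated start. Which start the arteries used was not measured.

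A wider set of 127 other channel, pump and receptor genes in 7 lists places the 10 genes among their relatives. The filter kept 102 of them, of which 24 were called, 13 higher and 11 lower. Their median log2 change was -0.41. With control artery 4 left out, 39 were called, 22 higher and 17 lower, while the share called over all genes also rose, from 10.9% to 16.2%.

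Voltage-gated calcium channel subunits had 18 of 20 genes tested and 4 called. Cacna1d, a second L-type pore, fell from 18.2 ± 1.57 to 8.89 ± 2.01 CPM (SD, n = 4), with a log2 change of -1.03 (edgeR adjusted p = 0.00804), and Cacnb2, an auxiliary subunit, fell with -1.10 (edgeR adjusted p = 0.0205). Cacna1s and Cacng1, subunits of the skeletal muscle channel, were called higher. Cacng1 had 0 counts in every control and 12 to 33 in the injured arteries, at least 7.79-fold higher against a floor of 3 counts per library. The list's median of -0.62 turned to 0.61 without control artery 4. That artery had 210.1 CPM of Cacna1b, the neuronal N-type pore, where the other controls had at most 0.345 and injured artery 3 had 70.1.

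Among the other calcium-activated potassium channel subunits, 3 of 7 were tested. None was called by edgeR or DESeq2, and none had an unadjusted p under 0.05. Kcnmb4, the neuronal BK subunit, was at 58.2 CPM in control artery 4 and 17.5 CPM in injured artery 3, and at most 2.50 CPM in the others. The accessory BK subunits Kcnmb2, Kcnmb3 and Lrrc26 had at most 1 count in any artery.

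Of 30 voltage-gated potassium channel subunits, 18 were tested and 3 called, each lower. Among them, Kcnd3, an A-type channel, fell from 14.2 ± 5.44 to 3.28 ± 0.658 CPM (SD, n = 4), with a log2 change of -2.11 (SE 0.34, edgeR adjusted p = 0.00506). When control artery 4 was left out, with 16.2% of all genes called, 9 were called, 5 of them lower.

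The inward rectifier, KATP and two-pore potassium channels had 13 of 17 genes tested, with 3 called higher and 1 lower. Kcnj15 rose from 1.75 ± 0.745 to 23.2 ± 6.88 CPM (SD, n = 4), with a log2 change of 3.72 (edgeR adjusted p = 0.000703). Kcnk13 rose with 2.27 (edgeR adjusted p = 0.00582) and Kcnj2, the Kir2.1 inward rectifier, with 1.71 (edgeR adjusted p = 0.00374). Kcnk3, the acid-sensitive background channel TASK-1, fell with -1.88 (edgeR adjusted p = 0.0259). The median of this list was 0.01, and 1.03 without control artery 4.

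For release and uptake by the sarcoplasmic reticulum, 21 of 22 genes were tested, 5 were called higher and 3 lower. Itpr3, a relative of Itpr1, was at 23.5, 26.8, 35.4 and 62.2 CPM in control arteries 1 to 4 and at 118.2, 69.3, 221.3 and 93.9 CPM in injured arteries 1 to 4. Every injured artery was above every control, and the log2 change was 1.76 (SE 0.44, edgeR adjusted p = 0.0278), while Itpr2, at 0.01, was not called. Ryr3 fell from 17.6 ± 6.97 to 4.40 ± 0.811 CPM (SD, n = 4; edgeR adjusted p = 0.00523) and Atp2a3 (SERCA3) fell by 1.19 on the log2 scale (edgeR adjusted p = 0.0115). Ryr1, Atp2a1 (SERCA1) and Srl, genes of the skeletal muscle reticulum, were called higher. Ryr1 had at most 2 counts in any control and 263, 142, 100 and 355 counts in injured arteries 1 to 4, and Atp2a1 went from 4.98 ± 2.22 to 65.5 ± 49.8 CPM (SD, n = 4).

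Skeletal muscle markers moved with these. Of 11, 9 were called higher, and their summed level was 83.7 to 230.5 CPM of the library total in the controls. It was 883.5, 483.5, 354.1 and 1292 CPM in injured arteries 1 to 4. Ryr1 and Srl had the same order of injured arteries. Atp2a1, Cacna1s and Cacng1 did not, although injured artery 4 was the highest for each of them. In the controls, Myh4 and Mylpf had at most 5 counts. The part of skeletal muscle in the rise of Ryr1, Atp2a1, Srl, Cacna1s and Cacng1 was not tested. Of 10 slow muscle and cardiac markers, 4 were tested, of which 2 were called higher and 1 lower, and their sum was 4.01 to 5.61 CPM of the library total in the controls and 7.86 to 30.4 CPM after injury. Slow and cardiac muscle also express Atp2a2, and cardiac muscle also expresses Ryr2. The part of these tissues in those levels was not tested.

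In the list of store-operated and receptor-operated entry, 17 of 18 genes were tested and 4 called. P2rx1, the ATP-gated channel of sympathetic vasoconstriction, fell from 217 ± 79.0 to 51.7 ± 9.49 CPM (SD, n = 4), with a log2 change of -2.07 (edgeR adjusted p = 0.00373). Higher were Trpc6, a diacylglycerol-activated channel, with 1.53 (edgeR adjusted p = 0.0089), Piezo1, the stretch-activated channel, with 1.41 (edgeR adjusted p = 0.00174), and Trpv4, with 1.33 (edgeR adjusted p = 0.0115). Among 13 genes of plasma membrane extrusion, sodium and chloride transport, 12 were tested and only Atp2b4, a plasma membrane calcium pump, was called. It was at 940.0, 847.8, 760.2 and 888.2 CPM in control arteries 1 to 4 and at 408.1, 300.6, 472.9 and 277.2 CPM in injured arteries 1 to 4, a log2 change of -1.24 (SE 0.20, edgeR adjusted p = 0.00479). Control artery 4 lay within the other controls, and without it 2 of the list were called, with 16.2% of all genes called.

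**Figure D5:**
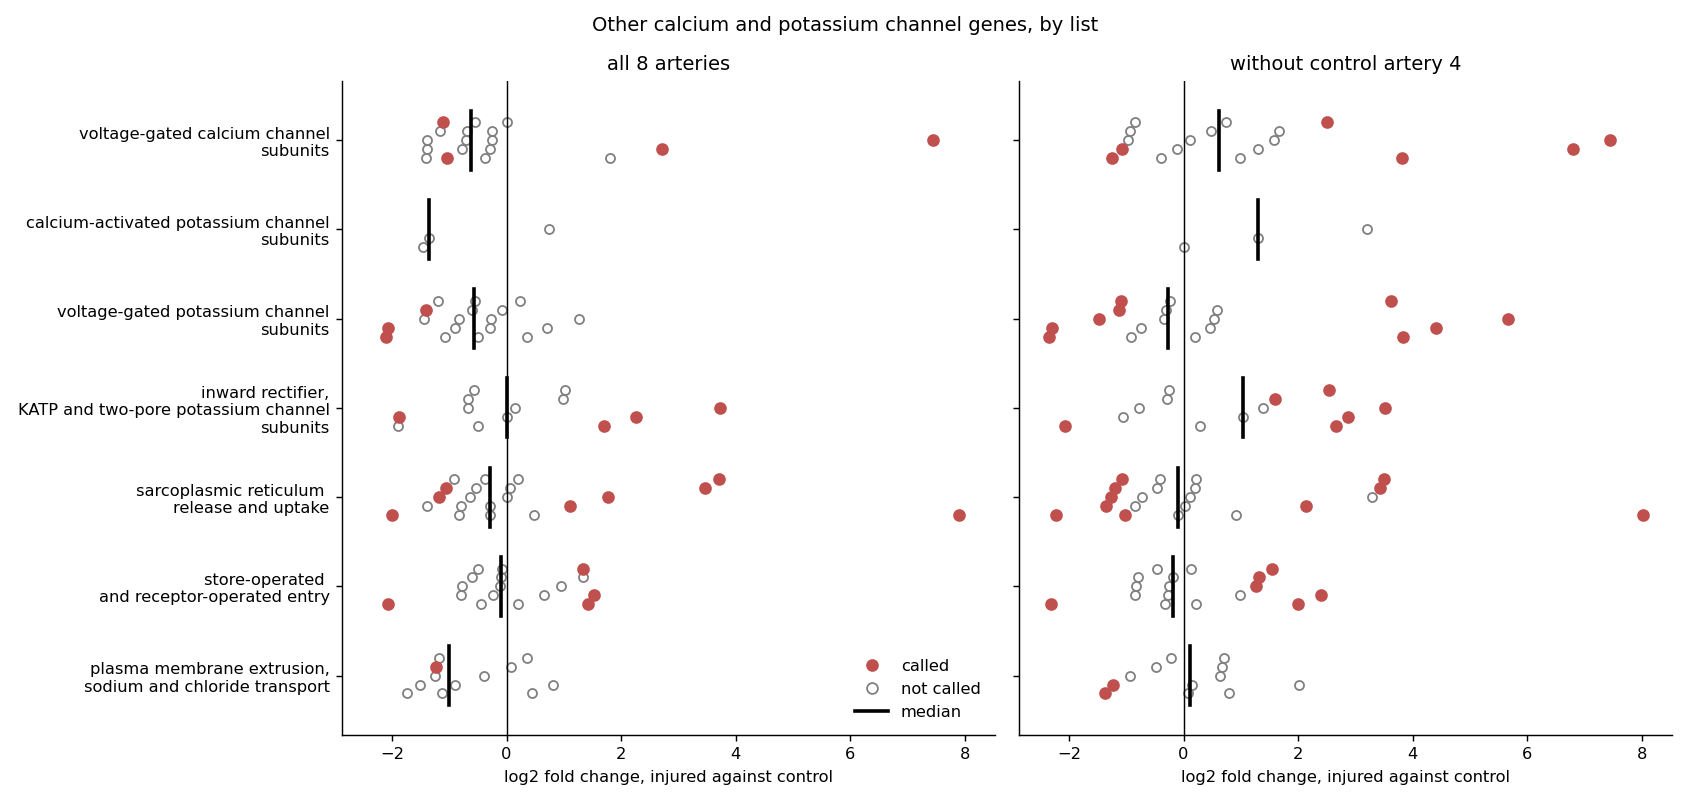
Log2 fold change (injured against control) of every tested gene in 7 lists of related channels, pumps and receptors, with all 8 arteries (left) and without control artery 4 (right). Filled points were called, open points were not, and bars are list medians, which turn from negative to positive for the voltage-gated calcium channel subunits, the calcium-activated potassium channel subunits and the plasma membrane list.

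Of 10 endothelial markers, 2 were called higher and 1 lower. Of the 13 sympathetic neuron markers, 9 were tested and none was called by edgeR, none had an unadjusted p under 0.05, and DESeq2 gave no adjusted p for them. Of 9 cortex markers, 3 were tested and 1 was called higher.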

How the data were processed

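The authors deposited raw read counts per gene symbol, 1 column per artery, and no normalization was applied to them. The submitters' processing notes name HISAT2 2.0.4, whereas the counting tool, genome build and strand are not given in the sources used here, so reads of overlapping genes may be shared. Each column was matched to its artery through the sample labels. Low counts were filtered with filterByExpr (edgeR 4.0.16, R 4.3.3), which kept 14359 of 37209 genes, and the quasi-likelihood test with TMM factors compared 4 injured with 4 control arteries without a covariate. Adjusted p-values (Benjamini-Hochberg) cover all genes tested. Standard errors come from the F statistic. Permutation tests used log2 CPM with a prior count of 2. A floor of 3 counts was 0.18 to 0.262 CPM and covers counting error only. The study used DESeq, so DESeq2 1.42.0 was also run. Where 200 genes of simulated counts were changed 4-fold, edgeR recovered 69% with 7 false calls (14135 genes tested), edgeR with the replicate block 42% with 6, and DESeq2 85.5% with 46 (14318 genes tested).

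The members and lists were chosen with earlier results of these data known. Genes named beside the 10 are, per list, the called genes with the largest absolute log2 fold change, at most 6, and markers or relatives whose level bears on a result; Cacna1b, Kcnmb2, Kcnmb3, Kcnmb4, Lrrc26 and Itpr2 were named after their values were seen. Some genes that this rule would name are not reported here. Of 220 symbols, 216 matched directly, 3 through an older symbol and 1 through a GRCr8 synonym. Alternatives were DESeq2, RLE or upper-quartile factors, library totals only, other filters, the replicate block, the false discovery rate alone and each artery left out.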

Additional observations from a re-analysis of the deposited data

Results flagged for a closer look

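Among 32 groups of 4 arteries (the CPM of 10 genes and the log2 ratios of 6 pairs, in each group), 2 held an artery so far from its nearest neighbour that the gap, divided by the whole range, passed the 95% limit of Dixon's test. About 1.6 such groups would arise by chance. Both times it was control artery 4. For Itpr1 in the controls the share was 0.868, with 239.3 CPM in control artery 4 and 507.7 CPM in the nearest control. For the log2 ratio of Pln over Atp2a2 in the controls it was 0.862, with -2.98 against -2.34.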

How the results depend on the processing

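The number of the 10 genes called, 4, was 2 with library totals only and 2 with the replicate block, with 1 of them lower in both. Of all genes tested, 11.7% were called with library totals only and 8.27% with the block, against 10.9% in the main fit. The false discovery rate alone added Stim1 to the 4 genes, and 17.2% of all genes passed it. With each artery left out in turn, 3 to 4 of the 10 genes were called, and 7.74% to 16.2% of all genes. Kcnn4 was called in every setting tried, Kcnma1 in all but library totals only, and Kcnmb1 in all but the replicate block (edgeR adjusted p = 0.0564). Itpr1 was also not called with the block (edgeR adjusted p = 0.0835). Library totals moved the median of all genes by 0.178, and Ryr2 then had 0.000513 in edgeR and 0.000245 in log2 CPM. Of the other channel genes, 18 to 39 were called with each artery left out, 11 to 22 higher and 7 to 17 lower, the highest without control artery 4. A filter of 10 counts in each library left 8 higher, and library totals only left 7 lower. The block gave 19, of which 10 were higher. Without control artery 4 and injured artery 3, chosen after seeing the data, 41 were called, 24 higher and 17 lower, and 4 of the 10 genes. Over all genes, the 1562 calls became 1007 with the filter of 10 counts, 2398 without control artery 4, 2473 without both of these arteries and 2470 with the false discovery rate alone. Relative to the contractile genes, 0 of the 10 genes were under 0.05 after adjustment over the 10 (6 with the mean) with the marker median, with the replicate block or with any artery left out, and in the last 2 settings the exact test cannot reach 0.05. Kcnma1 ranged from -0.03 (-0.0281, without control artery 2) to 0.58 (without control artery 4) there, and Pln over Atp2a2 from -0.10 to 0.17. Same-numbered arteries correlated at -0.52 to 0.45 in their deviations from the group means, and for 1 of 4 numbers each artery correlated best with its own number. The high sympathetic neuron markers of control artery 4 and injured artery 3 enter these deviations, so the correlations cannot decide the pairing. The numbers were not taken as pairs because the labels do not tie them to rats. For none of these changes was the cause tested.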

Other observations

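Beside the called genes, 4 relatives passed the false discovery rate with less than a 2-fold change, chosen for mention after seeing the values. Trpc1, a receptor-operated channel, had a log2 change of -0.80 (edgeR adjusted p = 0.00494), and Stimate, a partner of STIM1, had -0.77 (edgeR adjusted p = 0.00419). The ATP-gated channel P2rx4 had 0.96 and Slc8b1, the mitochondrial sodium-calcium exchanger, had 0.82, with edgeR adjusted p of 0.00218 and 0.0170. All 4 were without overlap between the groups.

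With control artery 4 left out, further relatives passed both criteria, and these too were picked after their values were seen. Orai2, a second pore of store-operated entry, was at 6.46, 8.01, 6.63 and 23.3 CPM in control arteries 1 to 4 and at 25.1, 25.5, 31.3 and 30.2 CPM in injured arteries 1 to 4. Its log2 change was 1.33 with all arteries (edgeR adjusted p = 0.0682) and 1.99 without control artery 4 (edgeR adjusted p = 0.000214). Casq2, the calcium-binding protein of the store, and Irag1, the substrate through which cyclic GMP inhibits Itpr1, had log2 changes of -0.80 and -0.82 with all arteries and -1.03 and -1.08 without control artery 4, the latter with edgeR adjusted p of 0.00428 and 0.00211.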
